A study of Mus musculus with 33 samples.

Results

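The genes described here are 9 transcription factors of the trophoblast lineage: Eomes, Cdx2, Elf5, Tfap2c, Tfap2a, Tead4, Gata3, Gata2 and Hand1. They were chosen by name, as regulators of trophectoderm, trophoblast stem cells and the placental cells made from them, with no threshold on their level. They were found by Ensembl ID among 37583 gene IDs counted in each of 33 libraries. The libraries hold poly-A RNA of mouse cells (strain 129SV/Jae/C57BL6J) on the way from mouse embryonic fibroblasts (MEFs) to induced pluripotent stem (iPS) cells. At days 3, 6, 9 and 12 of reprogramming and at the iPS stage, cells grown in ES medium (for embryonic stem cells), with added doxycycline and a supplement abbreviated AA, had been sorted into an SSEA1+ and an SSEA1- fraction. SSEA1 is a carbohydrate antigen on the surface of mouse pluripotent cells. The MEFs, kept in MEF medium, are the cells before reprogramming and the baseline for every stage. This gives 11 groups of 3 libraries. One harvest protocol, with trypsin, antibody staining and flow sorting, is given for all groups, MEFs included. The reprogramming factors and the cassette that doxycycline acts on are not given in the sources used here. The labels leave unsaid whether the 3 replicates of a group were independent cultures or animals. The p-values below therefore cover only the spread among these libraries, which may be technical.

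Trophectoderm is the outer layer of the mouse blastocyst and gives rise to the placenta, while the inner cell mass gives rise to the embryo and to pluripotent stem cells. In the outer cells TEAD4, working with the coactivator YAP, turns on Cdx2 and Gata3, and CDX2 opposes the pluripotency factor OCT4. EOMES, ELF5 and TFAP2C then keep trophoblast stem cells in place, GATA2 and HAND1 act in their descendants, and several of these factors also serve other tissues, EOMES in the primitive streak, TFAP2A in surface ectoderm and neural crest, GATA2 in blood and HAND1 in heart.

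Totals in genes were 8.93 to 41.69 M reads per library (median 23.15 M, with M for mega), and a gene with 0 reads in a library is compatible with up to 3 reads, which is 0.072 to 0.336 counts per M reads (CPM). These floors are on library totals before normalisation and cover counting error only. Levels are CPM after TMM normalisation. The fibroblast markers, 10 genes led by collagens, summed to 79900 to 87300 CPM in MEFs. The 10 pluripotency markers, among them Nanog, Esrrb and Zfp42, summed to 4930 to 7070 CPM in iPS SSEA1+ cells. In iPS SSEA1- cells the same markers summed to 141, 411 and 2700 CPM in replicates 1, 2 and 3, and the fibroblast markers to 8360, 14400 and 15200 CPM. Replicate 3 of the iPS SSEA1- group therefore stood apart from the other two in its pluripotency transcripts. For the tested factors, calls that changed without this library are given beside the results. The gene lists were not tested without it.

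RefSeq promoters (250 bases before to 50 after a start site, build GRCm38.p6) were at hand for 6 of the 9 genes, with 9 start sites in all. They were searched on both strands for 4 short motifs of the factor classes described here: AGATAA for the GATA factors, GCCNNNGGC for AP-2, GGAATG for TEAD and AGGTGTGA for T-box factors. The promoters of Eomes and Elf5 are shown as those of genes with no or few reads in MEFs and several CPM later on, and those of Gata3 and Gata2 as a pair of paralogs that fell below MEFs in day 6 SSEA1+ cells. They are written 5′ to 3′ on the strand of the gene, with matches in capitals.
Eomes promoter (chr9:118477939-118478238, plus strand): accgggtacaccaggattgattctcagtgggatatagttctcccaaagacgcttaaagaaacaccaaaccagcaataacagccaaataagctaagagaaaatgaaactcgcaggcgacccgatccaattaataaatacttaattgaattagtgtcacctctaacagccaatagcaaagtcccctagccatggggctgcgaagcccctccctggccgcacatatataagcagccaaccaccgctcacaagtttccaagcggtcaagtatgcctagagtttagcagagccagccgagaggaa
Elf5 promoter (chr2:103411848-103412147, plus strand): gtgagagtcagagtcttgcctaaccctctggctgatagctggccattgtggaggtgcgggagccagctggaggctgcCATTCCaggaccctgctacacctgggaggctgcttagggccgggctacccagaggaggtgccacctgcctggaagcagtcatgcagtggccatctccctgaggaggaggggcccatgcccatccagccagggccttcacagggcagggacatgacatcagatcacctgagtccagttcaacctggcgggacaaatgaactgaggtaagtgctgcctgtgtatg
Gata3 promoter (chr2:9878551-9878850, minus strand): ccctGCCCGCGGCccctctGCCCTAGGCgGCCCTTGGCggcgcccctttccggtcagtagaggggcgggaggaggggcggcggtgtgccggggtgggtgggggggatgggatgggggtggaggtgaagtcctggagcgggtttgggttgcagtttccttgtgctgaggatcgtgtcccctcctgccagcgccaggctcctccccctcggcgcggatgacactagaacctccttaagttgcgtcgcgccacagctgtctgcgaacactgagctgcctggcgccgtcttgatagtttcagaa
Gata2 promoter, downstream start (chr6:88198414-88198713, plus strand): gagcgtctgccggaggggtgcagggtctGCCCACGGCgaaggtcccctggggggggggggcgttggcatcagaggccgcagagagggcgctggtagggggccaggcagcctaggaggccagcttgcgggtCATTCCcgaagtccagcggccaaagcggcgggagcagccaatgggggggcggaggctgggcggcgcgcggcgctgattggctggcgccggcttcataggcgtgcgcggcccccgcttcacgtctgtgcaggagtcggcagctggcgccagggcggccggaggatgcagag

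The AP-2 motif was in 3 of the 9 member promoters, those of Cdx2, Gata3 and the downstream start of Gata2, and in 16.6% of 32851 promoters of the same length. Gata3 held 3 copies of it, at positions -246, -231 and -221 from the start. The TEAD motif was in 2 of the 9, at the upstream start of Elf5 and at the downstream start of Gata2, and in 14.7% of all promoters. The downstream start of Elf5, which is not shown, held none of the motifs. The GATA motif (11.2% of all promoters) and the T-box motif (1.28%) were in none of the 9. A match is a description of letters, not a binding site, and no match says only that these letters are not in this window.

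All tests are edgeR's quasi-likelihood test on the deposited counts in 1 model of the 33 libraries, with p-values adjusted by the Benjamini-Hochberg method over the 17326 genes tested. Calls required an adjusted p under 0.05 together with a change of 2-fold or more. Of the 9 factors, 8 had enough reads to be tested and Cdx2 did not. In the plot of levels by library, Elf5 was near 0 before day 9, and Cdx2 was at or under 0.172 CPM in all but 1 library.

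**Figure D1:**
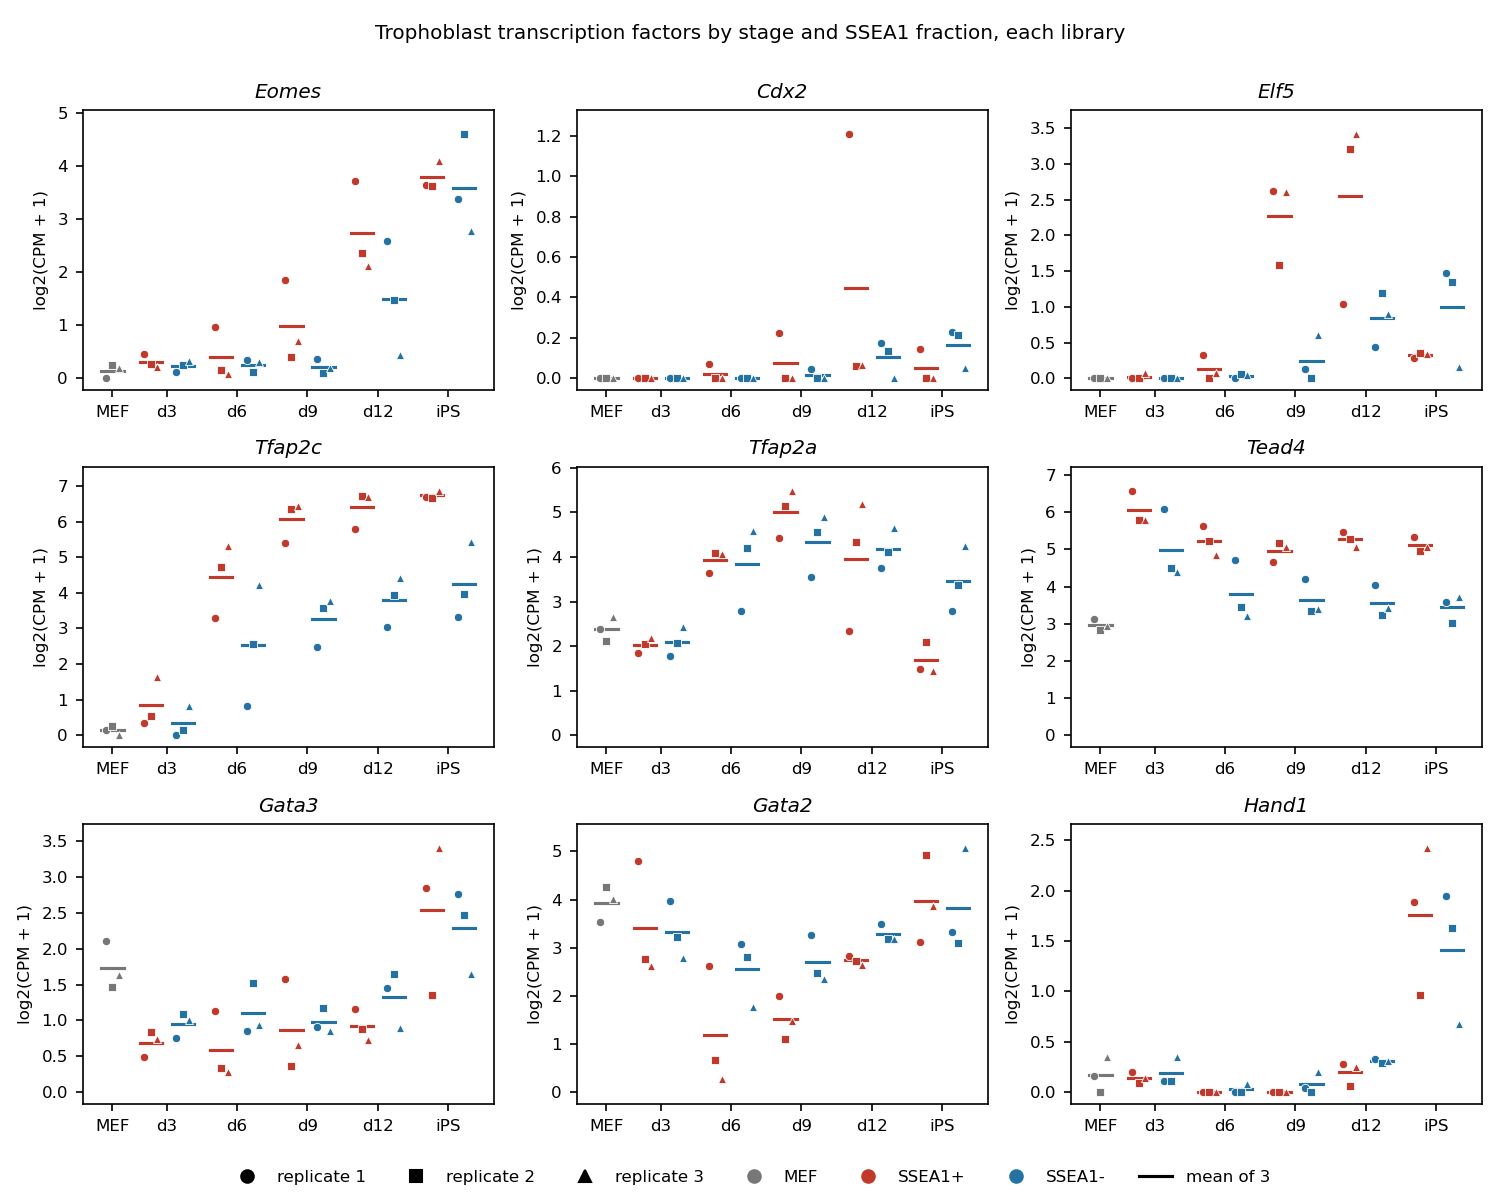
Level of each of the 9 factors, as log2(CPM + 1), in every library. Groups run from MEFs to the iPS stage, with SSEA1+ in red and SSEA1- in blue, marker shapes give the replicate number, and bars are the means of the 3 log2 values. Tfap2c climbs to 101 to 114 CPM in iPS SSEA1+ cells, and Cdx2 has 1.31 CPM in day 12 SSEA1+ replicate 1 and at most 0.172 CPM in every other library.

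Eomes encodes a T-box factor needed for trophoblast stem cells, and its transcripts appeared late. The MEF libraries held 0, 0.186 and 0.139 CPM, which is 3 reads in all. At days 3 and 6 every library of either fraction was at or under 0.947 CPM. At day 9 the SSEA1+ libraries had 2.61, 0.328 and 0.622 CPM and the SSEA1- libraries 0.281, 0.0759 and 0.147 CPM. All 3 day 9 SSEA1+ libraries were above all 3 SSEA1- libraries, with replicate 1 well above the other two. At day 12 Eomes had 12.2, 4.17 and 3.36 CPM in SSEA1+ cells and 4.99, 1.77 and 0.354 CPM in SSEA1- cells, and these ranges overlapped. Eomes had 11.5, 11.4 and 16.0 CPM in iPS SSEA1+ cells and 9.37, 23.2 and 5.88 CPM in iPS SSEA1- cells. The SSEA1- values enclosed the SSEA1+ values there.

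The Eomes difference between fractions passed the test at day 9 (log2 fold change 2.74 ± 0.98 SE, adjusted p = 0.030). That call ended with the trend of counts on GC content removed (2.41, adjusted p = 0.070), without day 9 SSEA1+ replicate 1 (1.41, adjusted p = 0.31), and without day 9 SSEA1- replicate 2 or 3 (adjusted p = 0.12 and 0.078). At day 12 the difference was 1.46 ± 0.82 (adjusted p = 0.14), and it passed only without day 12 SSEA1- replicate 1 (2.57, adjusted p = 0.034). At the iPS stage it was 0.02 ± 0.80 (95% interval -1.55 to 1.59 on the log2 scale), and its sign turned under other scalings (-0.01 with DESeq2 size factors, -0.04 with upper-quartile scaling). Against MEFs Eomes rose in SSEA1+ cells at day 9 (adjusted p = 0.014), day 12 (0.00011) and the iPS stage (1.7e-05), and in SSEA1- cells at day 12 (0.0033) and the iPS stage (8.6e-05). The day 9 rise over MEFs ended without day 9 SSEA1+ replicate 1 (adjusted p = 0.14) or without MEF replicate 1 (adjusted p = 0.090). On summed reads the iPS SSEA1+ group was 153 times the MEF group (95% exact interval 52.0 to 741) and the iPS SSEA1- group 136 times (46.2 to 659), intervals that cover counting error only. Comparisons with MEFs share the 3 MEF libraries. In bulk RNA, fewer cells with a transcript and less transcript per cell cannot be told apart.

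EOMES is also a factor of the primitive streak. Streak markers were high beside Eomes in some libraries, and endoderm markers were higher in iPS SSEA1- than in iPS SSEA1+ cells. The 9 mesoderm and streak markers summed to 112 CPM in day 12 SSEA1+ replicate 1, against 3.40 and 3.36 CPM in replicates 2 and 3, and the 10 endoderm markers to 77.9 against 14.1 and 18.3 CPM. Foxa2, an endoderm factor, had 27.5 CPM in that library, against 0.255 and 0.0933 CPM in the other two. In iPS SSEA1- cells the streak markers summed to 34.8, 52.4 and 6.52 CPM in replicates 1 to 3, in the same order as Eomes. In iPS SSEA1+ cells they summed to 13.5, 10.9 and 7.34 CPM, lowest in replicate 3, where Eomes was highest. The endoderm markers summed to 166 to 218 CPM in MEFs. They summed to 15.7 to 24.3 CPM in iPS SSEA1+ cells and to 88.6 to 440 CPM in iPS SSEA1- cells. Eomes was far above its MEF level in either fraction of the iPS stage. The part of such cells in the Eomes signal was not tested.

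Cdx2 encodes the caudal-type homeodomain factor that specifies trophectoderm. It had a read in 12 of 33 libraries and none in MEFs, in day 3 cells of either fraction or in day 6 SSEA1- cells. Day 12 SSEA1+ replicate 1, the library rich in streak markers, held 36 reads (1.31 CPM), against 1 read in each of replicates 2 and 3. The day 12 SSEA1- libraries held 4, 3 and 0 reads. There were 2, 0 and 0 reads in iPS SSEA1+ cells and 5, 3 and 1 reads in iPS SSEA1- cells. No group other than day 12 SSEA1+ averaged above 0.123 CPM. With the low-count filter removed, Cdx2 passed in 1 of 18 comparisons, day 12 SSEA1+ against MEFs (adjusted p = 0.028), where 36 reads came from 1 library and 1 read from each of the other two.

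Elf5 encodes an ETS factor that keeps trophoblast stem cells in their lineage and whose promoter is methylated and silent in embryonic stem cells. Its highest group means were those of SSEA1+ cells at days 12 and 9, and in SSEA1+ cells it was low again at the iPS stage. All MEF and day 3 SSEA1- libraries were at 0, and no other library of days 3 and 6 exceeded 0.249 CPM. At day 9 the SSEA1+ libraries had 5.18, 2.01 and 5.07 CPM and the SSEA1- libraries 0.0936, 0 and 0.514 CPM. The fractions did not overlap. At day 12 the SSEA1+ libraries had 1.06, 8.21 and 9.66 CPM and the SSEA1- libraries 0.354, 1.29 and 0.864 CPM, so that SSEA1+ replicate 1 fell within the SSEA1- range. The iPS SSEA1+ libraries had 0.212, 0.279 and 0.262 CPM, and the iPS SSEA1- libraries 1.78, 1.55 and 0.112 CPM. The 2 higher iPS SSEA1- libraries were replicates 1 and 2, those low in pluripotency markers. Keratinocyte markers summed to 157, 39.9 and 86.1 CPM in day 9 SSEA1+ and 27.8, 14.7 and 17.1 CPM in day 9 SSEA1- cells. At day 12 they summed to 65.4, 205 and 228 CPM in SSEA1+ and 44.0, 53.6 and 72.4 CPM in SSEA1- cells. They did not overlap between the fractions at day 9 and did at day 12, and their part in the Elf5 differences was not tested.

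In the test, Elf5 was higher in SSEA1+ than in SSEA1- cells at day 9 (log2 fold change 4.55 ± 1.12 SE, adjusted p = 0.0030) and at day 12 (2.91 ± 0.97, adjusted p = 0.016). The day 12 call ended without day 12 SSEA1- replicate 1 (2.50, adjusted p = 0.074) or SSEA1+ replicate 3 (2.46, adjusted p = 0.055). At the iPS stage the difference pointed the other way and was not called (-2.17 ± 1.04, adjusted p = 0.083), though it passed without iPS SSEA1- replicate 3 (-2.73, adjusted p = 0.022). Between day 12 and the iPS stage Elf5 fell in SSEA1+ cells by 4.62 ± 1.09 on the log2 scale (adjusted p = 0.0066), and the values of the 2 groups did not overlap. The change of the sort difference from day 12 to the iPS stage was -5.07 ± 1.41 (adjusted p = 0.066). It passed without iPS SSEA1- replicate 3 (-5.58, adjusted p = 0.018), without day 12 SSEA1+ replicate 1 (-5.58, adjusted p = 0.033) and in DESeq2 (-5.11, adjusted p = 0.028). Against the MEF libraries, all at 0, Elf5 was at least 47.9-fold higher in day 9 and at least 73.9-fold higher in day 12 SSEA1+ cells, set against 3 reads over the MEF group. The same bound was 9.80-fold in day 12 SSEA1-, 13.5-fold in iPS SSEA1- and 2.94-fold in iPS SSEA1+ cells. The last of these (adjusted p = 0.044) did not pass with any 1 of the 6 libraries compared left out (adjusted p = 0.059 to 0.13) or with no filter on low counts (adjusted p = 0.059).

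Tfap2c encodes AP-2 gamma, a factor of trophoblast stem cells that also acts in primordial germ cells, and it had the highest CPM per kb of the 9 in iPS SSEA1+ cells (28.8). MEFs held 0.116, 0.186 and 0 CPM, 4 reads in all. In SSEA1+ cells it had 0.262, 0.464 and 2.10 CPM at day 3, 8.72, 25.6 and 38.7 CPM at day 6, and 41.0, 80.8 and 85.6 CPM at day 9. It had 54.5, 105 and 103 CPM at day 12 and 103, 101 and 114 CPM at the iPS stage in these cells. Replicate 1 was the lowest SSEA1+ library at days 3 to 12, and the 3 libraries were close to each other at the iPS stage. In SSEA1- cells Tfap2c had 0, 0.116 and 0.783 CPM at day 3, 0.773, 4.85 and 17.5 CPM at day 6, and 4.53, 11.0 and 12.5 CPM at day 9. It had 7.28, 14.3 and 20.2 CPM at day 12 and 9.06, 14.5 and 42.3 CPM at the iPS stage in SSEA1- cells. The fractions overlapped at days 3 and 6 and were apart at day 9, day 12 and the iPS stage.

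Tfap2c was higher in SSEA1+ than in SSEA1- cells at day 9 (log2 fold change 2.90 ± 0.82 SE, adjusted p = 0.0071), day 12 (2.65 ± 0.81, adjusted p = 0.0082) and the iPS stage (2.27 ± 0.79, adjusted p = 0.019). The iPS call ended without iPS SSEA1- replicate 1 (1.86, adjusted p = 0.089) or replicate 2 (2.02, adjusted p = 0.082), and with no filter on low counts (2.11, adjusted p = 0.061). At day 6 the difference was 1.65 ± 0.79 (adjusted p = 0.12). With the replicate number as a block, where same-numbered libraries of that day deviated together, it was 1.95 (adjusted p = 0.0050), and it also passed without day 6 SSEA1- replicate 3 (3.12, adjusted p = 0.015). Against MEFs Tfap2c rose in either fraction from day 6 on, with adjusted p of 0.00071 or less. On summed reads iPS SSEA1+ cells were 931 times the MEFs (95% exact interval 364 to 3420) and iPS SSEA1- cells 197 times (76.7 to 723). In iPS SSEA1- cells the highest library was replicate 3, which had 2700 CPM of pluripotency markers, against 141 and 411 CPM in replicates 1 and 2. The germ cell markers summed to 349, 188 and 218 CPM in iPS SSEA1+ and 16.8, 21.3 and 91.6 CPM in iPS SSEA1- cells. The part of pluripotent or germ cells in these values was not tested. At day 3 Tfap2c was not called in SSEA1+ cells against MEFs (adjusted p = 0.12) but passed with the replicate block, which the numbers of these groups allow (2.60, adjusted p = 0.049).

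Tfap2a encodes AP-2 alpha, which acts in trophectoderm and also in surface ectoderm and neural crest, and it was highest at day 9 and low in iPS SSEA1+ cells. MEFs had 4.24, 3.35 and 5.29 CPM, and day 3 cells of either fraction 2.43 to 4.42 CPM. At day 6 it had 11.5, 16.0 and 15.7 CPM in SSEA1+ cells and 5.87, 17.3 and 22.9 CPM in SSEA1- cells. At day 9 it had 20.6, 34.3 and 43.4 CPM in SSEA1+ cells and 10.8, 22.7 and 28.9 CPM in SSEA1- cells. The fractions overlapped at each of days 3 to 12. At day 12 the SSEA1+ libraries had 4.08, 19.3 and 35.5 CPM and the SSEA1- libraries 12.5, 16.2 and 24.2 CPM. The iPS SSEA1+ libraries had 1.81, 3.29 and 1.73 CPM, all below the 5.93, 9.27 and 17.9 CPM of the iPS SSEA1- libraries.

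At the iPS stage Tfap2a was lower in SSEA1+ than in SSEA1- cells (log2 fold change -2.28 ± 0.58 SE, adjusted p = 0.0020), and this call held in each of the settings tried and without any 1 of the 6 libraries. From day 12 to the iPS stage Tfap2a fell by 3.11 ± 0.59 in SSEA1+ cells (adjusted p = 0.00084). The change of its sort difference from day 12 to the iPS stage was -2.44 ± 0.78 (adjusted p = 0.11). It was called without day 12 SSEA1+ replicate 1 (-2.92, adjusted p = 0.020) and in DESeq2 (-2.39, adjusted p = 0.047). Against MEFs Tfap2a rose in SSEA1+ cells at day 6 (1.75 ± 0.57, adjusted p = 0.013), day 9 (2.94 ± 0.59, 0.00017) and day 12 (2.20 ± 0.57, 0.0019). In SSEA1- cells it rose at day 6 (1.85 ± 0.57, adjusted p = 0.011), day 9 (2.28 ± 0.57, 0.0028) and day 12 (2.04 ± 0.57, 0.0060). Both day 6 calls ended without MEF replicate 2 (adjusted p = 0.066 in SSEA1+ and 0.065 in SSEA1- cells), and the SSEA1- one also without day 6 SSEA1- replicate 3 (adjusted p = 0.068). In iPS SSEA1- cells the change was 1.37 ± 0.56 (adjusted p = 0.056), and it passed in DESeq2 (adjusted p = 0.043), with upper-quartile scaling (adjusted p = 0.039), with the GC trend removed (adjusted p = 0.031) and without iPS SSEA1- replicate 1 (1.65, adjusted p = 0.034). In iPS SSEA1+ cells it was -0.91 ± 0.58 (adjusted p = 0.17). The neural crest and surface ectoderm markers, which include Tfap2b, summed to 24.0, 23.2 and 39.4 CPM in iPS SSEA1+ and 80.7, 67.0 and 62.3 CPM in iPS SSEA1- cells. In MEFs these markers summed to 163 to 184 CPM. Their part in the Tfap2a difference was not tested.

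On a scale that allows genes to be set side by side, CPM per kb of exon, Tfap2c took a growing share of the summed Tfap2a, Tfap2b and Tfap2c transcripts in SSEA1+ cells. The share was 2.74, 4.72 and 0% in MEFs, then 9.78, 14.1 and 43.4% at day 3 and 44.2, 66.9 and 74.3% at day 6 in SSEA1+ cells. It was 70.0, 75.2 and 71.6% at day 9, 94.2, 87.5 and 79.1% at day 12 and 98.5, 97.6 and 98.9% at the iPS stage. Among these genes the iPS SSEA1+ libraries were thus nearly all Tfap2c. The paralogs Tfap2d and Tfap2e were not part of the sum. In SSEA1- cells the share was 7.49, 21.8 and 40.8% at day 6 and 24.8, 33.9 and 31.8% at day 9. It was 34.4, 49.0 and 49.2% at day 12 and 41.3, 58.7 and 72.5% at the iPS stage there. At days 6, 9 and 12 and at the iPS stage all SSEA1+ libraries were above all SSEA1- libraries in this share. Tfap2b, the remaining gene of the sum, was lower in iPS SSEA1+ than in iPS SSEA1- cells (log2 fold change -5.63 ± 0.83 SE, adjusted p = 5.3e-06).

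**Figure D2:**
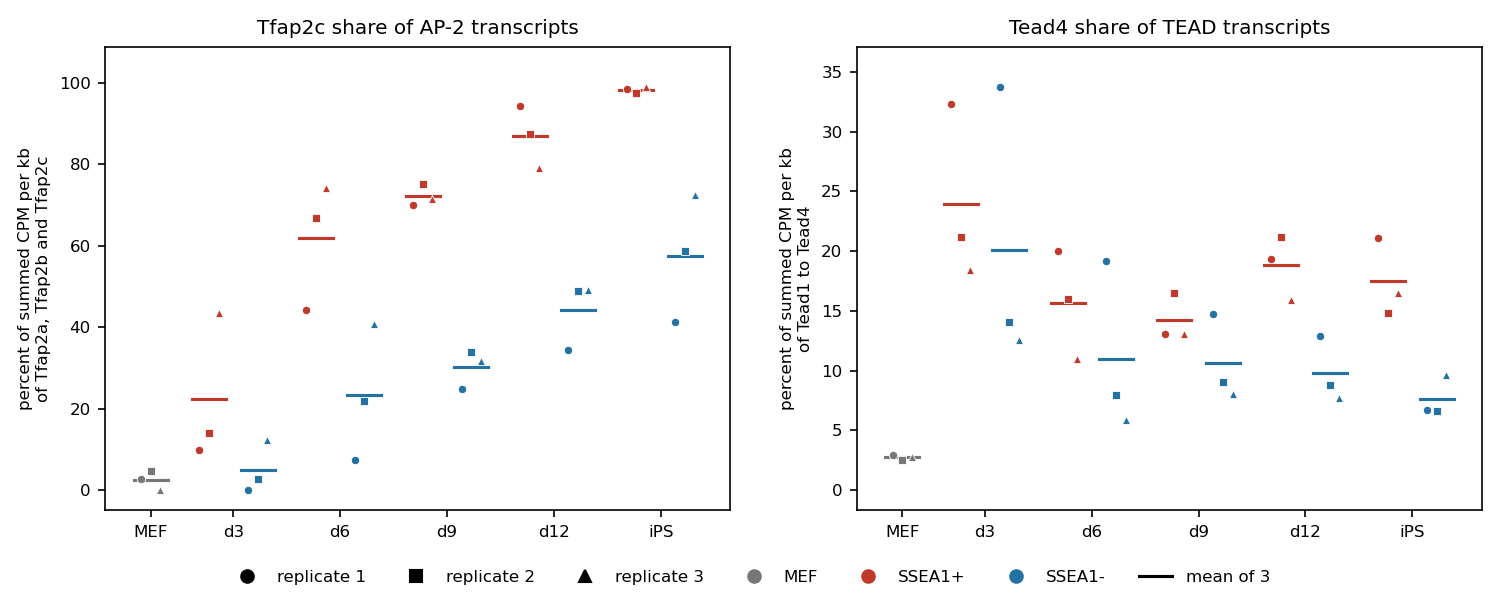
Share of Tfap2c among the summed CPM per kb of Tfap2a, Tfap2b and Tfap2c (left) and share of Tead4 among those of Tead1 to Tead4 (right), in percent, in every library. SSEA1+ is red, SSEA1- blue and MEF grey, and bars are means of 3. Tfap2c reaches 97.6 to 98.9% in iPS SSEA1+ cells, while Tead4 stays at or below 33.7% in all libraries.

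Tead4 encodes the TEAD factor that starts the trophectoderm program with YAP, and its transcripts were highest at day 3. MEFs had 7.67, 6.14 and 6.68 CPM. At day 3 the SSEA1+ libraries had 93.5, 54.2 and 54.7 CPM and the SSEA1- libraries 66.5, 21.7 and 20.1 CPM, with replicate 1 the highest of either fraction. In SSEA1+ cells Tead4 then had 48.8, 36.2 and 27.9 CPM at day 6, 24.5, 34.9 and 32.2 CPM at day 9, 43.3, 38.0 and 32.8 CPM at day 12 and 39.0, 29.8 and 32.3 CPM at the iPS stage. All SSEA1+ libraries lay above all MEF libraries. In SSEA1- cells it had 25.1, 9.94 and 8.25 CPM at day 6, 17.4, 9.15 and 9.55 CPM at day 9, 15.6, 8.35 and 9.78 CPM at day 12 and 11.1, 7.07 and 12.3 CPM at the iPS stage. The iPS SSEA1- libraries overlapped the MEFs.

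Against MEFs Tead4 rose in SSEA1+ cells at each stage, by 3.30 ± 0.45 at day 3 (adjusted p = 1.8e-06) and by 2.16 to 2.47 on the log2 scale later (adjusted p = 0.00017 or less). In SSEA1- cells it rose at day 3 (2.40 ± 0.43, adjusted p = 8.6e-05) and at day 6 (1.07 ± 0.42, adjusted p = 0.043). The day 6 call ended without any of the 3 MEF libraries (adjusted p = 0.095 to 0.15), without day 6 SSEA1- replicate 1 (0.41, adjusted p = 0.46), with only these groups in the fit (adjusted p = 0.096), with DESeq2 size factors (0.98, adjusted p = 0.066) and in DESeq2 (0.98). Later SSEA1- cells differed by 0.57 to 0.82 from MEFs and were not called, though day 9 passed with the trend of counts on GC content removed (1.77, adjusted p = 0.032). With replicate block and GC correction together, day 9 (1.63, adjusted p = 0.0055), day 12 (1.40, 0.013) and the iPS stage (1.28, 0.025) passed. Same-numbered libraries did not deviate together in these comparisons. Between the fractions Tead4 was higher in SSEA1+ cells at day 6 (1.38 ± 0.41, adjusted p = 0.014), day 9 (1.34 ± 0.41, 0.012), day 12 (1.76 ± 0.42, 0.0011) and the iPS stage (1.73 ± 0.42, 0.0013), with no overlap between the fractions at any of these stages. Tead4 has the highest GC content of the 9 transcripts (61.8%), and with each library's trend of counts on GC content removed all 4 calls ended: the difference was then 0.44 at day 6 (adjusted p = 0.63), 0.44 at day 9 (0.59), 1.07 at day 12 (0.15) and 1.11 at the iPS stage (0.13). The replicate block together with the GC correction gave calls at day 12 (1.20, adjusted p = 0.019) and the iPS stage (1.06, adjusted p = 0.037) and left days 6 (0.69, adjusted p = 0.22) and 9 (0.71, adjusted p = 0.18) uncalled. The day 6 call also ended without day 6 SSEA1- replicate 2 or 3 or SSEA1+ replicate 1, or with only these groups in the fit (adjusted p = 0.073 to 0.081), and the day 9 call without day 9 SSEA1- replicate 2 or 3 or SSEA1+ replicate 2 (adjusted p = 0.050 to 0.073). At day 3 the difference was 0.90 ± 0.40 (adjusted p = 0.15), and 1.00 (adjusted p = 0.022) with the replicate block; it also passed without day 3 SSEA1- replicate 1 (1.66, adjusted p = 0.013), and its sign turned with the GC trend removed (-0.29).

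Among the 4 TEAD genes, on the CPM per kb scale, Tead4 made up 2.99, 2.49 and 2.78% in MEFs. Its share was 32.3, 21.2 and 18.4% in day 3 SSEA1+ and 33.7, 14.1 and 12.6% in day 3 SSEA1- cells. It was 21.1, 14.8 and 16.5% in iPS SSEA1+ cells, above the 6.74, 6.60 and 9.62% in iPS SSEA1- cells. Tead2 held the largest mean share in every group, 40.5% in MEFs and 65.6% in iPS SSEA1+ cells. Against MEFs, Tead1 (log2 fold change -1.93 ± 0.54 SE, adjusted p = 0.0070) and Tead3 (-1.21 ± 0.31, adjusted p = 0.0037) were lower in iPS SSEA1- cells, where Tead2 was not called (-0.42 ± 0.23, adjusted p = 0.16).

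Most of 12 cofactors and Hippo pathway genes of the TEAD factors were lower in iPS SSEA1+ cells. Against MEFs, 10 of 12 fell and none rose in iPS SSEA1+ cells, where 22.5% of all tested genes fell and 27.9% rose. In iPS SSEA1- cells 2 of 12 fell and none rose, against 7.7% and 19.1% of all genes. Those 2 were Amotl1, an angiomotin family gene (log2 fold change -1.42 ± 0.30 SE, adjusted p = 0.00076), and Lats1, a kinase that inhibits YAP (-1.02 ± 0.26, adjusted p = 0.0034). Yap1 itself, the TEAD coactivator, was at 215 CPM in iPS SSEA1- cells and 284 CPM in MEFs, a change under 2-fold (-0.40 ± 0.12, adjusted p = 0.0099). Between the fractions at the iPS stage 9 of 12 were lower and 1, Nf2, was higher in SSEA1+ cells, with a median of -1.55 against 0.06 over all genes tested. The largest of these were in Ankrd1, Ccn2 and Ccn1, target genes of YAP and TEAD in many cells and also abundant in fibroblasts. Ankrd1 averaged 1.34 CPM in iPS SSEA1+ and 111 CPM in iPS SSEA1- cells (-6.37 ± 0.81, adjusted p = 6.7e-07). The fibroblast markers moved the same way, with 45.8 to 248 CPM in iPS SSEA1+ and 8360 to 15200 CPM in iPS SSEA1- cells, and their part in these differences was not tested.

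Gata3 encodes a zinc finger factor that acts beside CDX2 in trophectoderm, and it was low in all groups. MEFs had 3.31, 1.77 and 2.09 CPM. In SSEA1+ cells it had 0.411, 0.796 and 0.665 CPM at day 3, 1.20, 0.267 and 0.211 CPM at day 6, 1.99, 0.287 and 0.574 CPM at day 9, 1.24, 0.850 and 0.653 CPM at day 12 and 6.21, 1.56 and 9.55 CPM at the iPS stage. The iPS SSEA1+ values spread widely, with replicate 2 the lowest. In SSEA1- cells the day 3 to day 12 libraries ran from 0.689 to 2.13 CPM, and the iPS libraries had 5.80, 4.55 and 2.12 CPM. Gata3 fell below MEFs in SSEA1+ cells at day 3 (log2 fold change -1.96 ± 0.69 SE, adjusted p = 0.023) and day 6 (-2.09 ± 0.70, adjusted p = 0.015). Both calls ended without MEF replicate 1 (adjusted p = 0.068 and 0.052). The day 3 call also ended without day 3 SSEA1+ replicate 1 or 3 (adjusted p = 0.079 and 0.054), and the day 6 call without day 6 SSEA1+ replicate 2 or 3 (adjusted p = 0.068 and 0.072). From day 12 to the iPS stage it rose in SSEA1+ cells (2.65 ± 0.68, adjusted p = 0.010), a call that ended without day 12 SSEA1+ replicate 3 or iPS SSEA1+ replicate 3 (adjusted p = 0.068 each). Set directly against MEFs, it was not called in iPS SSEA1+ (1.26 ± 0.65, adjusted p = 0.093) or iPS SSEA1- cells (0.79 ± 0.65, adjusted p = 0.35); the first passed without iPS SSEA1+ replicate 2 (1.65, adjusted p = 0.033). The exons of Gata3 overlap a gene on the other strand, Gm13256, and one on the same strand, 9230102O04Rik, both among the counted IDs. The files are named as counted without strand. Reads in the shared bases may therefore have been set aside as ambiguous and be missing from the Gata3 count. In GENCODE M21, genes on the other strand that are not among the counted IDs also overlap exons of Tfap2a (Gm26688, Gm47067 and Gm47061) and of Eomes (Gm33460). Reads of those genes in the shared bases cannot be told apart from reads of Tfap2a and Eomes. Gata3 was also called lower in day 6 SSEA1+ than SSEA1- cells without day 6 SSEA1+ replicate 1, and lower in day 9 SSEA1- cells than MEFs with only those groups in the fit.

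Gata2 encodes the related factor of placental giant cells and blood progenitors, and it dipped in SSEA1+ cells of days 6 and 9. MEFs had 10.5, 18.1 and 15.2 CPM. In SSEA1+ cells it had 27.0, 5.84 and 5.17 CPM at day 3, 5.13, 0.587 and 0.211 CPM at day 6, 2.98, 1.15 and 1.77 CPM at day 9, 6.15, 5.65 and 5.27 CPM at day 12 and 7.70, 29.3 and 13.6 CPM at the iPS stage. Replicate 1 was far above the other two at days 3 and 6. In SSEA1- cells it had 14.7, 8.34 and 5.86 CPM at day 3, 7.46, 5.98 and 2.43 CPM at day 6, 8.65, 4.56 and 4.11 CPM at day 9, 10.3, 8.10 and 8.09 CPM at day 12 and 9.09, 7.56 and 32.4 CPM at the iPS stage. Gata2 fell below MEFs in SSEA1+ cells at day 6 (log2 fold change -2.87 ± 0.81 SE, adjusted p = 0.0050) and day 9 (-2.88 ± 0.81, adjusted p = 0.0042). In SSEA1- cells it was not called against MEFs at any stage, but passed at day 6 (-1.48, adjusted p = 0.037) and day 9 (-1.29, adjusted p = 0.030) with only the groups compared in the fit. Between the fractions it was called at no stage: at day 9, where all SSEA1+ libraries were below all SSEA1- libraries, the difference was -1.56 ± 0.78 (adjusted p = 0.12), and it was called with the replicate block and GC correction together (-2.02) or with only these groups in the fit (-1.63), each at adjusted p = 0.028. Gata2 was also called lower in SSEA1+ cells at day 6 with block and GC correction (-2.12, adjusted p = 0.029) and without day 6 SSEA1+ replicate 1. At the iPS stage it was 0.04 ± 0.74 (95% interval -1.41 to 1.49), and its sign turned with no filter on low counts (-0.10) or the GC trend removed (-0.24). The blood and endothelium markers, which include Gata1, summed to 164, 144 and 187 CPM in iPS SSEA1+ and 29.9, 448 and 62.3 CPM in iPS SSEA1- cells, and their part in the Gata2 level was not tested. The GATA paralogs Gata4 (log2 fold change 4.79 ± 0.85 SE, adjusted p = 0.00011) and Gata1 (adjusted p = 0.00027, at least 13.2-fold over MEF libraries at 0) rose over MEFs in iPS SSEA1- cells, while Gata6 did not pass (-0.17 ± 0.58, adjusted p = 0.84) and Gata5 was not tested.

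Hand1 encodes a basic helix-loop-helix factor of trophoblast giant cells and of the heart, and it appeared at the iPS stage in either fraction. MEFs held 2, 0 and 2 reads (0.116, 0 and 0.278 CPM), and all libraries of days 3 to 12 were at or under 0.278 CPM. The iPS SSEA1+ libraries had 2.71, 0.947 and 4.35 CPM and the iPS SSEA1- libraries 2.85, 2.09 and 0.596 CPM. All 6 iPS libraries were above all others, and the fractions overlapped. From day 12 to the iPS stage Hand1 rose in SSEA1+ cells (log2 fold change 4.10 ± 0.87 SE, adjusted p = 0.0029) and in SSEA1- cells (2.91 ± 0.81, adjusted p = 0.026). The SSEA1- call ended with any 1 of the 3 day 12 SSEA1- libraries left out (adjusted p = 0.081 to 0.11), without iPS SSEA1- replicate 1 (2.44, adjusted p = 0.082) and with only the libraries of these groups in the fit (adjusted p = 0.091). Over MEFs, Hand1 passed in iPS SSEA1+ (adjusted p = 0.00042) and iPS SSEA1- cells (adjusted p = 0.0033). On summed reads these groups were 23.8 times (95% exact interval 9.09 to 88.3) and 16.2 times (6.20 to 60.5) the MEFs. Between the fractions the difference was 0.53 ± 0.73 (adjusted p = 0.55), and its sign turned with the GC trend removed (-0.03). The heart and lateral mesoderm markers, which include Hand2, summed to 7.75, 5.96 and 18.3 CPM in iPS SSEA1+ and 34.4, 19.1 and 13.2 CPM in iPS SSEA1- cells. In MEFs these markers summed to 24.9 to 34.6 CPM. Their part in the Hand1 level was not tested. Hand1 was also called lower than MEFs in SSEA1+ cells of days 6 (adjusted p = 0.041) and 9 (adjusted p = 0.028), where it had 0 reads in 3 libraries against 4 reads in MEFs. Both calls ended without MEF replicate 1 or 3 or any 1 of the SSEA1+ libraries compared (adjusted p = 0.058 to 0.12), and the day 6 call also with no filter on low counts or with the GC trend removed (adjusted p = 0.056 and 0.052). Its paralog Hand2 fell in iPS SSEA1- cells against MEFs (-1.43 ± 0.44, adjusted p = 0.013).

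On the CPM per kb scale, the order of mean levels in iPS SSEA1+ cells was Tfap2c (28.8), Tead4 (9.37), Eomes and Gata2 (3.12 each), Gata3 (1.45), Hand1 (1.34), Tfap2a (0.464), Elf5 (0.0427) and Cdx2 (0.0157). In MEFs Gata2 (2.70) and Tead4 (1.90) led. By mean level in iPS SSEA1- cells Tfap2c (5.97) was followed by Eomes (3.08), Gata2 (3.03), Tead4 (2.82) and Tfap2a (2.25). That order did not hold by library. The highest factor was Tead4 in replicate 1 (3.09), Eomes in replicate 2 (5.58) and Tfap2c in replicate 3 (11.5). Gata2 had 1.68, 1.40 and 6.01 in replicates 1, 2 and 3. No test was made between genes.

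Counted over the 8 tested factors, the calls between the fractions were as follows. At day 3 none was called by edgeR without the replicate block or by DESeq2, where 1 (Tead4) had an unadjusted p under 0.05, and 6.67% of all tested genes were called; with the block 1 of 8, Tead4, was called. At day 6 it was 1 of 8 (16.4% of all genes), and with the replicate block 2 of 8. At day 9 it was 4 of 8, all higher in SSEA1+ cells (25.2%), at day 12 3 of 8, all higher (35.9%), and at the iPS stage 3 of 8, 2 higher and 1 lower (37.4%). The day 9 count was 2 of 8 (Elf5 and Tfap2c) with the GC trend removed, and likewise without day 9 SSEA1- replicate 2 or 3, which puts it near the share over all genes. The median log2 difference over the 8 factors was 1.00 at day 9 and 0.26 at the iPS stage, against 0.03 and 0.06 over all genes tested.

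**Figure D3:**
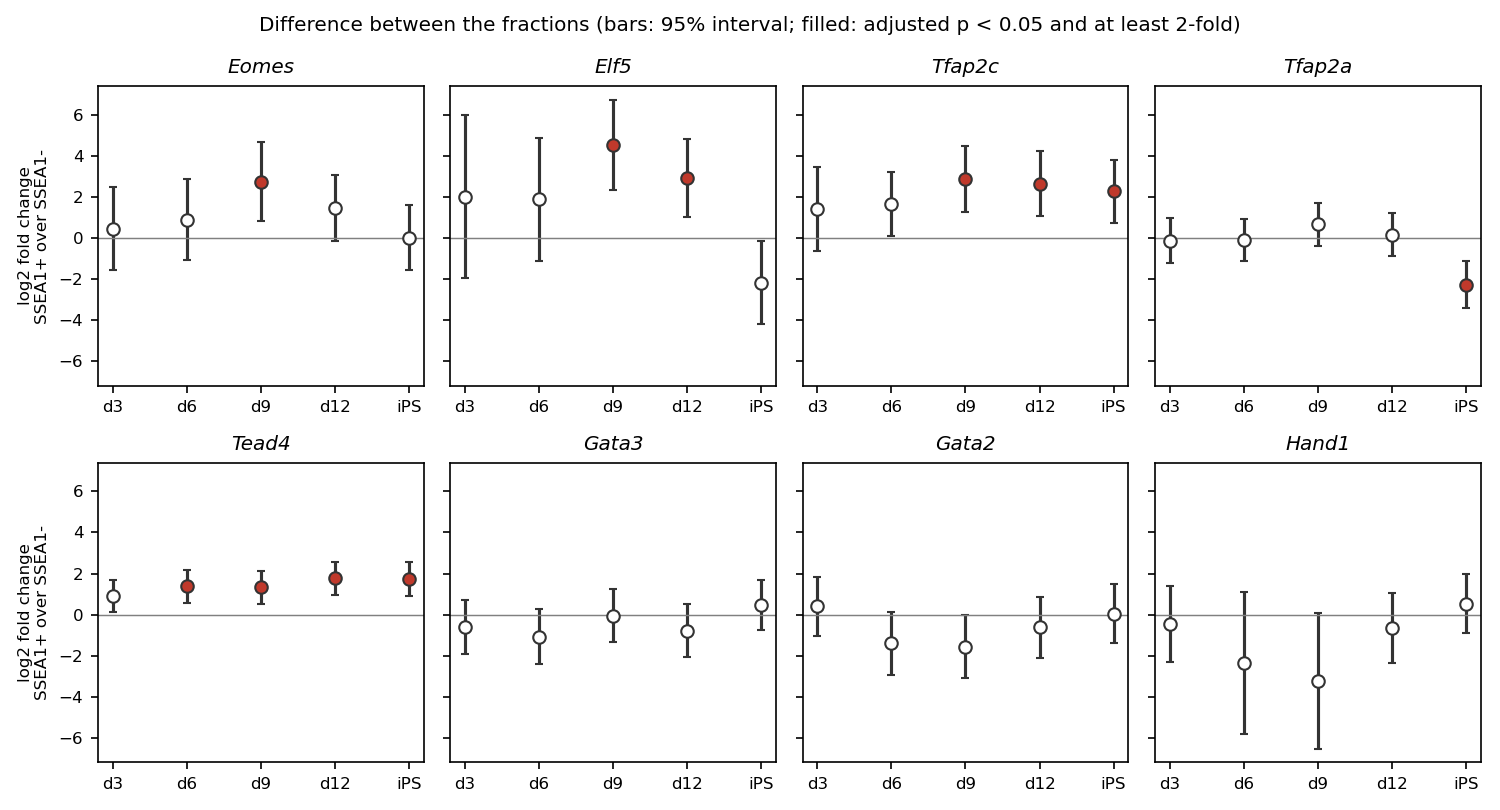
Log2 fold change of SSEA1+ over SSEA1- cells for the 8 tested factors at each stage, with 95% intervals. Filled points are called (adjusted p under 0.05 and at least 2-fold). Tead4 is filled from day 6 on and Tfap2c from day 9 on, both above 0, and Tfap2a is filled only at the iPS stage, below 0.

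Against MEFs, the factors called in SSEA1+ cells were 2 of 8 at day 3 (32.3% of all genes), 6 of 8 at day 6 (33.5%), 7 of 8 at day 9 (38.6%), 5 of 8 at day 12 (46.6%) and 5 of 8 at the iPS stage (50.5%). Of these, 1, 3, 5, 5 and 5 were higher than in MEFs and the others lower. With a library left out, the day 6 count was 4 to 5 and the day 9 count 5 to 7. Both main counts include Hand1 as lower, on 0 reads against 4 in MEFs. In SSEA1- cells 1 of 8 was called at day 3 (30.2%), 3 at day 6 (28.2%), 2 at day 9 (26.6%), 4 at day 12 (28.1%) and 4 at the iPS stage (26.8%), all of them higher. Tfap2c was among the higher ones in every comparison with MEFs from day 6 on. From day 12 to the iPS stage 4 of 8 factors were called in SSEA1+ cells, Hand1 and Gata3 higher and Elf5 and Tfap2a lower (9.49% of all genes). In SSEA1- cells 1 was called, Hand1 (7.21%). Eomes was at 2.42 ± 0.85 there (adjusted p = 0.071), and with the replicate block, which the numbers of these groups bear out, at 2.85 (adjusted p = 0.014). It also passed without day 12 SSEA1- replicate 1 (3.61, adjusted p = 0.042) and in DESeq2 (2.44, adjusted p = 0.039). The sort difference changed from day 12 to the iPS stage for none of the 8 in edgeR without the replicate block, with 2 (Elf5 and Tfap2a) at an unadjusted p under 0.05 and the same 2 called by DESeq2, and 1.85% of all genes were called. With the block edgeR called Tfap2a (-2.08, adjusted p = 0.034), and with block and GC correction both.

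Other trophoblast genes were counted in lists, which were not tested again with a library left out. Of 19 other genes of trophoblast stem cells and extra-embryonic ectoderm, 10 rose and 1 fell in iPS SSEA1- cells against MEFs, with a median log2 change of 1.40 against 0.19 over all genes tested, of which 19.1% rose and 7.7% fell. The smallest p-values were those of Sox21 (6.88 ± 0.87, adjusted p = 2.1e-06), Rhox9 (8.19 ± 1.08, adjusted p = 7.6e-06) and Rhox6 (7.08 ± 1.01, adjusted p = 9.6e-06), the last 2 X-linked homeobox genes of the placenta. Rhox9 averaged 9.68 CPM and Rhox6 11.7 CPM in iPS SSEA1- cells, and both were higher still in iPS SSEA1+ cells, at 30.2 and 34.7 CPM (1.65 ± 0.63, adjusted p = 0.034, and 1.58 ± 0.66, adjusted p = 0.047). In iPS SSEA1+ cells 11 of the 19 rose and 2 fell against MEFs, where 27.9% of all genes rose and 22.5% fell. Between the fractions 5 were higher and 5 lower in iPS SSEA1+ cells, near the 16% and 21.3% over all genes, with Bmp4, a ligand made by extra-embryonic ectoderm, among the lower (-3.51 ± 0.50, adjusted p = 3.2e-06).

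Of 18 genes of differentiated trophoblast, 12 had enough reads to be tested, and 8 of these rose and none fell in iPS SSEA1- cells against MEFs, with a median of 2.59 against 0.19 over all genes tested (19.1% rose and 7.7% fell). The 3 with the smallest p were Ascl2, a factor of spongiotrophoblast (3.79 ± 0.80, adjusted p = 0.00071), Phlda2 (4.76 ± 1.09, adjusted p = 0.0013) and Dlx3 (2.99 ± 0.78, adjusted p = 0.0040). Tpbpa, the marker gene of spongiotrophoblast, had 3.02, 13.4 and 0 CPM in iPS SSEA1- replicates 1, 2 and 3, 0.903, 0 and 0 CPM in iPS SSEA1+ cells and no read in MEFs. Prl3b1, a placental lactogen gene, had 0.617, 3.00 and 0 CPM in iPS SSEA1- and 0.212, 0 and 0 CPM in iPS SSEA1+ cells. Both had no read in the 1 iPS SSEA1- library that was rich in pluripotency markers, and both had reads in the other two. The prolactin-family genes have near-identical copies, and their counts are uncertain, since reads that fit several places were left uncounted. In iPS SSEA1+ cells 4 of 12 rose and 1 fell against MEFs, and the share that rose is near the 27.9% over all genes. Between the fractions at the iPS stage, 2 of the 12 were higher in SSEA1+ cells, Ascl2 (3.03 ± 0.63, adjusted p = 0.00030) and Phlda2 (3.19 ± 0.76, adjusted p = 0.0012), and 4 were lower, Pparg (-5.20 ± 0.96, adjusted p = 8.9e-05), Serpinb9b, Tfpi and Plac1. The genes of this list thus did not go one way between the fractions. Keratinocyte markers, which trophoblast shares in part with other epithelia, summed to 110, 173 and 54.7 CPM in iPS SSEA1- and 130, 60.3 and 72.1 CPM in iPS SSEA1+ cells.

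**Figure D4:**
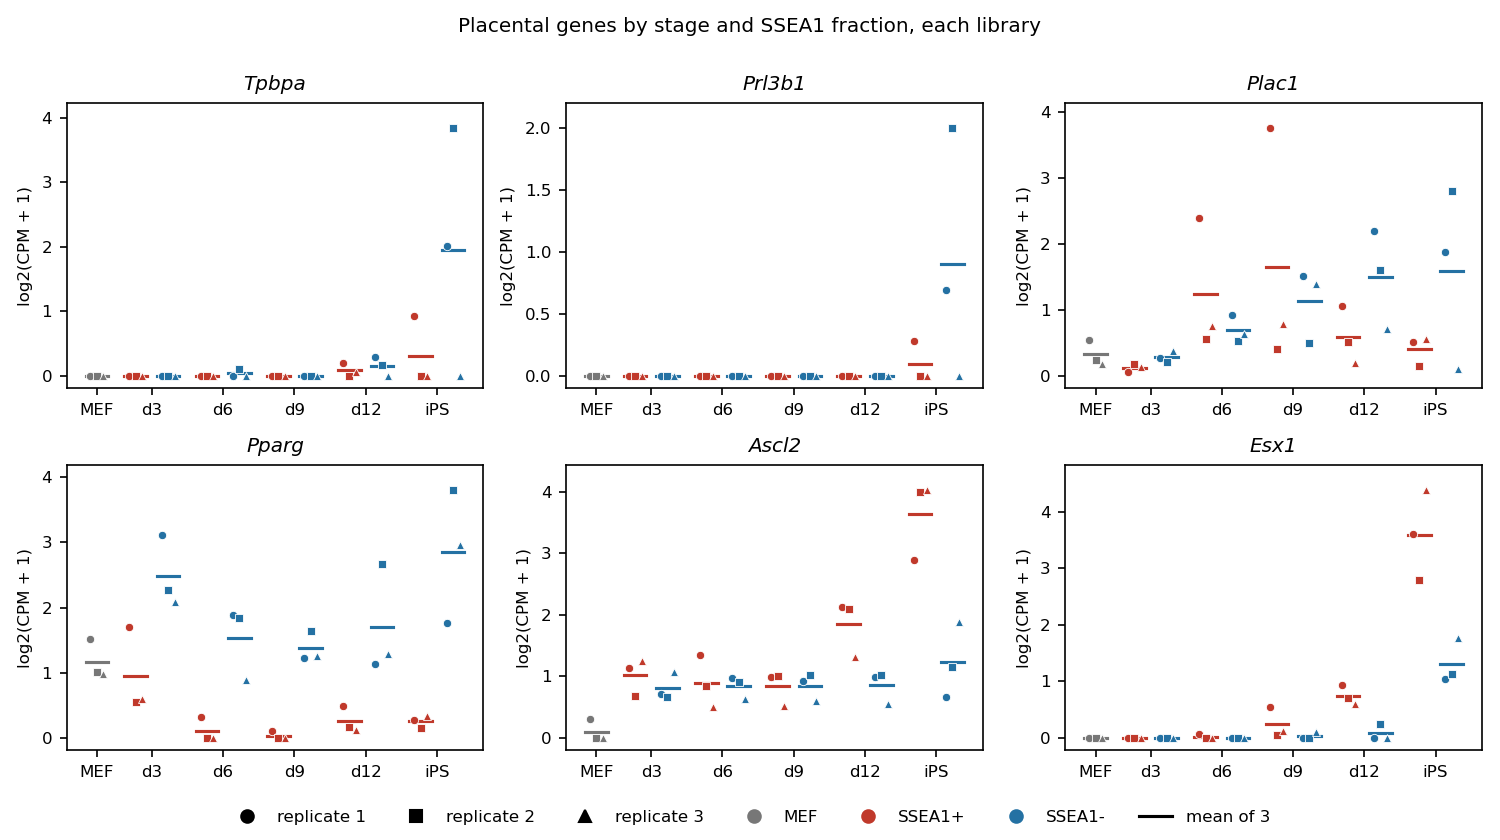
Levels, as log2(CPM + 1), of 6 placental genes in every library, in the same order of groups as the plot of the 9 factors. Bars are the means of the 3 log2 values. Tpbpa and Prl3b1 have reads in replicates 1 and 2 of iPS SSEA1- cells and are at 0 in replicate 3, Pparg is higher in iPS SSEA1- cells, and Ascl2 and Esx1 are higher in iPS SSEA1+ cells.

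The paralogs of the 9 factors were also counted. Against MEFs, 5 of 14 tested paralogs rose and 3 fell in iPS SSEA1- cells, where 19.1% of all genes rose and 7.7% fell. Their median log2 change was 2.98, or 1.39 with genes at 0 in MEFs set at their bound, against 0.19 over all genes. Elf3, an epithelial ETS factor and paralog of Elf5, had 79.1, 169 and 125 CPM in iPS SSEA1+ cells, 10.3, 17.3 and 55.2 CPM in iPS SSEA1- cells and at most 0.291 CPM in MEFs. It was the paralog with the smallest p in iPS SSEA1- cells against MEFs (7.34 ± 0.95, adjusted p = 3.1e-06). Ehf (4.26 ± 0.94, adjusted p = 0.0010) and Tfap2e (adjusted p = 0.0053, at least 5.25-fold over MEF libraries at 0) also rose there. Tbx21, a T-box gene of immune cells and paralog of Eomes, had 3.63, 4.84 and 4.50 CPM in day 3, 3.89 to 15.6 CPM in day 6 and 5.63, 8.72 and 8.90 CPM in day 9 SSEA1+ cells, 0.801, 3.70 and 3.36 CPM in day 12 SSEA1+ cells and 0.212, 0.836 and 2.88 CPM in iPS SSEA1+ cells, and no read in MEFs. Cdx1, Cdx4 and Tfap2b were not called against MEFs in iPS SSEA1- cells, and Tbr1, Tfap2d and Gata5 had too few reads to be tested.

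The genes whose group means were most like those of a member were found by Pearson's r of log2 CPM (prior count 2) over the 11 groups, among 11306 or 11307 genes (by member) with at least 10 CPM in their highest group. For Eomes these were Rhox9 (r = 0.989), Prtg (0.989) and Otx2 (0.987), and for Elf5 Prom2 (0.958), Rab25 (0.952) and Lypd6b (0.944). For Tfap2c they were Spint2 (0.994), Large2 (0.992) and Piwil2 (0.988), and for Tfap2a Camk1g (0.957), Fam49a (0.941) and Chdh (0.935). For Tead4 they were Rrp15 (0.994), Oxnad1 (0.983) and Atrip (0.981), for Gata3 Camkk1 (0.953) and Pmaip1 (0.943), for Gata2 Pde8a (0.946), Cited2 (0.905) and Pawr (0.901), and for Hand1 Tnfrsf19 (0.908), Slc37a2 (0.906) and Cpn1 (0.896). Among the 8 factors themselves the most alike pair was Hand1 and Gata3 (r = 0.87), and the least alike Tfap2a and Gata2 (r = -0.65). The groups share a library preparation but differ in depth, and these values are descriptions over 11 points.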

How the data were processed

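Whole-number read counts per gene were deposited by the authors for each of the 33 libraries. Per the submitters' processing notes, STAR 2.3.0, Picard 1.100, HTSeq 0.6.0 and the mouse build mm9 were used; which annotation release served is not stated there or elsewhere in the labels, and only the file names say that counting ignored strand. Libraries were made with a directional poly-A kit, per the labels' protocols. Lines that name no gene were left out of library sizes: 4.42 to 15.51% of uniquely placed reads had no feature and 2.41 to 3.15% were ambiguous, and 14.95 to 27.24% of all reads had several alignments. Symbols, exon length, GC content and chromosome came from GENCODE M21, whose build differs, so none of its coordinates are printed; promoters are those of RefSeq.

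Genes were filtered with filterByExpr (minimum count 10), scaled by TMM and fitted in edgeR 4.0.16 (R 4.3.3, limma 3.58.1) with robust quasi-likelihood dispersion, 11 group means and 22 residual degrees of freedom, and 18 comparisons were tested. The SE is the log2 fold change divided by the root of F. DESeq2 1.42.0 was an alternative; the others were scalings, filters, removal of each library's GC trend, the replicate block, the groups compared alone and each library left out. The code was tested on simulated data. Replicates of a group correlated at r = 0.905 to 0.991 and differed beyond sampling noise.

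Same-numbered libraries deviated together (all 3 correlations over 0.1) between the fractions of day 3 (0.35 to 0.47), of day 6 (0.30 to 0.56), of day 9 (0.18 to 0.31) and of day 12 (0.18 to 0.24), for SSEA1+ cells against MEFs at days 3 (0.15 to 0.23), 6 (0.11 to 0.14) and 12 (0.16 to 0.20), and for iPS against day 12 SSEA1- cells (0.27 to 0.45), and not in the other comparisons. The pairing rests on this check, not on the labels.

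The 9 factors and the gene lists were chosen with earlier results of these data known. Named are the 9 factors, all their paralogs, up to 3 genes of each list with the smallest adjusted p in iPS SSEA1- cells against MEFs, and the 3 genes most like each factor (1 of them is not reported here); other list genes named were chosen after their values were seen. Protein sequences were not used here.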

Additional observations from a re-analysis of the deposited data

How the results depend on the processing

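Of 665 single-gene values under another setting, 604 kept their direction and side of the threshold, as did 388 of 456 with a library left out; the cause of the others was not tested. Factors called between the fractions numbered 1 at day 3 with the replicate block (0 without it); at day 6 they numbered 2 with the block, 2 with block and GC correction, 0 with the GC trend removed and 0 with only the groups compared (1 in the main test); at day 9 they numbered 2 with the GC trend removed (4). Against MEFs they numbered 2 in day 3 SSEA1- cells with the groups alone and 2 in DESeq2 (1). With the groups alone they numbered 4 at day 9 (2) and 2 at day 12 (4). In that day 12 fit Elf5 and Eomes failed the low-count filter and were not tested. For iPS against day 12 SSEA1- cells the factors called numbered 2 with the block, 2 with block and GC correction, 2 in DESeq2 and 0 with the groups alone (1), and for the change of the sort difference 1, 2, 2 and, in the main test, 0. Over all genes, calls with the groups alone were 2745 for iPS SSEA1- cells against MEFs (4636), 196 for iPS against day 12 SSEA1- cells (1250) and 0 for the change of the sort difference (321), which had 497 with the block, 548 with block and GC correction and 641 in DESeq2.

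With each library left out, genes called ranged from 531 to 1117 for the fractions at day 3, 871 to 1799 for iPS against day 12 SSEA1+ cells, 478 to 1362 for SSEA1- cells and 135 to 645 for the change of the sort difference. Factors called ranged from 1 to 2 for day 3 SSEA1+ and 1 to 3 for day 6 SSEA1- cells against MEFs, 0 to 1, 0 to 2 and 2 to 4 between the fractions at days 3, 6 and 9, 0 to 1 for iPS against day 12 SSEA1- cells and 0 to 2 for the change of the sort difference. Uncalled differences near 0 turned sign. At the iPS stage Eomes was -0.01 with DESeq2 size factors, with a filter of 1 CPM and in DESeq2, -0.04 with upper-quartile scaling, -0.14 with no filter, -0.49 with the GC trend removed, -0.42 with block and GC correction and -0.16 with the groups alone. Gata2 was -0.10, -0.24, -0.30 and -0.09 with no filter, GC removed, block and GC correction and the groups alone, and Hand1 -0.03 and -0.31 with GC removed and with block and GC correction. Tead4 at day 3 was -0.29 and 0.00 in those last settings. With libraries left out these iPS differences ranged from -0.37 to 0.76 for Eomes, -0.66 to 1.01 for Gata2, -0.18 to 0.84 for Gata3 and -0.09 to 0.92 for Hand1. With a prior count of 0.5, Hand1 kept 0 and Tfap2c 1 of the 3 genes most like it. Where the numbers pair the libraries, the block changed no call of a factor other than those given beside the results. Depth limits folds over MEFs for Cdx2, Elf5, Eomes, Hand1 and Tfap2c, which had 0 to 4 reads there.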
